A study of Mus musculus with 4 samples.

Results

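The abundant long intergenic noncoding RNAs (lincRNAs) of mouse embryonic stem (ES) cells were the genes typed as lincRNA in the authors' deposited table with a mean normalized count of at least 200 over all libraries. The members were thus chosen by their level. H19, Meg3, Rian, Mirg and Peg13, transcripts of imprinted loci, were left out by name. The rule kept 152 of 3411 lincRNA gene IDs, and 1787 of those IDs had a count. Levels are therefore given as a description with no test, while the difference between the groups was no part of the rule. The mean was under 200 in group B for 13 members and in group A for 8. Those members entered through their other group, so a difference in that direction was built into their choice.

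The study sequenced polyadenylated RNA of 2 Gsk3a-/-;Gsk3b-/- samples, which lack both genes of glycogen synthase kinase 3, and 2 wild-type samples, described as biological replicates. Every sample label gives the cells an age of embryonic day 16, and the design text gives another day, which may belong to the name of the line. Both genotypes grew with serum and leukaemia inhibitory factor on gelatin with irradiated mouse embryonic fibroblasts, so feeder RNA can be present, and the labels do not say whether a genotype is 1 clone or several. The deposited data are a single comparison of a group B with a group A. No source used here ties a genotype to A or B, so values are given for group B and group A without one.

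LincRNAs are spliced or unspliced transcripts from between protein-coding genes that carry no long reading frame. Some act in the nucleus as scaffolds of nuclear bodies or near the gene next door, and others serve mainly as the primary transcript of small RNAs held in their introns or exons. ES cells are known for a set of lincRNAs that go with the pluripotent state and are lost on differentiation. Glycogen synthase kinase 3 marks beta-catenin for destruction, and cells without the kinase hold more beta-catenin to act with TCF/LEF factors.

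The table held group means, from which the reads of the 2 libraries behind each group were recovered as whole numbers. They are called B1, B2, A1 and A2 and carry no replicate number of the labels. Library totals ran between 112655210 and 146326307 reads. Gsk3a had normalized counts of 1697 and 1347 in group B and of 6353 and 7104 in group A. Gsk3b had 5051 and 5002 in group B and 5438 and 6285 in group A. No gene on chromosome X, Y or M had a count, Hprt and the mitochondrial genes included, so Xist, Jpx, Ftx and Tsix, the RNAs of the X inactivation centre, are listed at 0 and give no information. The markers of ES cells were high in every library (Pou5f1 between 93404 and 125786 normalized counts). The summed level of 20 feeder fibroblast markers was 55210 in B1 and 246341 in B2, against 172118 in A1 and 84875 in A2, and 0 of the 20 passed the threshold. The summed level of 19 endoderm markers was 462579 in B1 and 244131 in B2, against 151735 in A1 and 114525 in A2, and 1 of the 19 passed the threshold, as higher. Both libraries of group B lay above both of group A in 12 of the 19 and below in 1, with a median log2 fold change of 1.62. Of 16 macrophage markers 2 rose (Lyz2 and Spi1) and 1 fell (Mrc1). Both group B libraries lay above both of group A in 11 of the 16 and below in 3, with a median log2 fold change of 1.39. The summed macrophage level, 22236 in B1 and 29857 in B2, against 28420 in A1 and 29902 in A2, was mostly that of Laptm5. Among the 13521 genes with a mean of 200 or more the shares were 28.5% above and 26.1% below. Of those genes 2.77% passed the threshold as higher and 3.36% as lower. These bulk values cannot tell fewer cells of a type from less RNA per cell.

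A small number of the 152 lincRNAs held most of the signal. Their mean normalized counts ran from 200.9 to 127661 with a median of 558, 47 had at least 1000, and 4 had at least 20000. Together they held 86.3% of all normalized counts of lincRNA genes and 0.287% of those of all genes. The 10 highest members held 66.5% of the members' counts. Per kilobase of exon, which allows genes to be compared, the members ran from 37.4 to 38348 normalized counts with a median of 299. Gm26917 was first at 38348 per kilobase, before Gm28901 at 13360, Gm42418 at 12210 and Platr13 at 9331. Lncenc1, Epb41l4aos, Gm26623, Platr10, Snhg12 and Snhg6 followed between 9009 and 4061 normalized counts per kilobase. Gm28901 shares 85.7% of its exon bases with Gm6430 on the opposite strand and Gm42418 shares 99.5% with other genes. On the opposite strand Gm26623 shares 32.4% with Gm6722 and Snhg6 shares 11.1% with Mcmdc2. All these levels are uncertain: the sources used here do not say whether reads were counted by strand.

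The median exon length of the members was 2550 bases, with a range of 205 to 20771, against 1255.5 bases for the 1606 lincRNAs with a count, a mean under 200 and a position. A single exon block made up 17 members (11.3%) and 120 of the rarer lincRNAs (7.47%). Longer exons collect more reads, and the level that chose the members was not scaled by length. The GENCODE M21 annotation placed 151 of the 152, with 4 to 16 on every autosome, and typed 136 as lincRNA. It typed 15 otherwise, among them Platr17 and Platr25 as protein_coding and 1810014B01Rik and Gpr137b-ps as pseudogenes. Of the members 40 shared exon bases with a gene on the opposite strand, 26 of them over at least 10% of their exon length.

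Close to the level that defined the set, Gm26563 had a mean of 200.9, C920006O11Rik 203 and 4933427D06Rik 204, while Gm15675 at 199.5, 1700007L15Rik at 198 and Gm807 at 191 stayed outside. The mean was at least 200 in both groups for 131 members. It was under 200 in group B for 13 and under 200 in group A for 8, and these 21 entered through their other group.

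Of the 152 members 15 (9.87%) differed between the groups at an adjusted p under 0.05 in the authors' deposited table. Of these, 4 (2.63% of the members) were higher in group B and 11 (7.24%) were lower. Over all 30237 genes with a count, 3.46% passed, 1.54% as higher and 1.92% as lower. Over the 13521 genes that reached a mean of 200, the level range of the members, 6.13% passed, 2.77% as higher and 3.36% as lower. Among the 1632 lincRNAs with a count and a mean under 200, 8 passed (0.490%), 2 as higher (0.123%) and 6 as lower (0.368%). The median log2 fold change of group B over group A was -0.09 for the members and 0.01 for every gene at a mean of 200 or more, and the median of its absolute value was 0.30 for the members and 0.19 for those genes. The median of the members was -0.15 with membership at a mean of 400, and -0.19 without the members that share exon bases with a gene on the opposite strand, a choice made after the values were seen. A difference between the members and other genes was not tested.

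The recovered libraries gave fewer calls. Limma on log2(normalized count + 1) called 7 of the 152 (4.61%), 1 higher (0.658%) and 6 lower (3.95%). Over 20465 genes it called 2.01%, 0.977% as higher and 1.03% as lower. All 7 were among the 15 of the authors' test. The limma adjusted p of the 15 ran from 0.0309 to 0.115. In 97 of the 152 members (63.8%) the 2 libraries of group B lay on the same side of both group A libraries, 37 above (24.3%) and 60 below (39.5%). The same held for 54.6% of the genes that reached a mean of 200, 28.5% above and 26.1% below. Without A1, and likewise without A2, limma called 0 members and 0 genes in all. At an unadjusted p under 0.05 it then found 25 members and 2420 genes without A1, and 24 members and 2034 genes without A2.

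**Figure D1:**
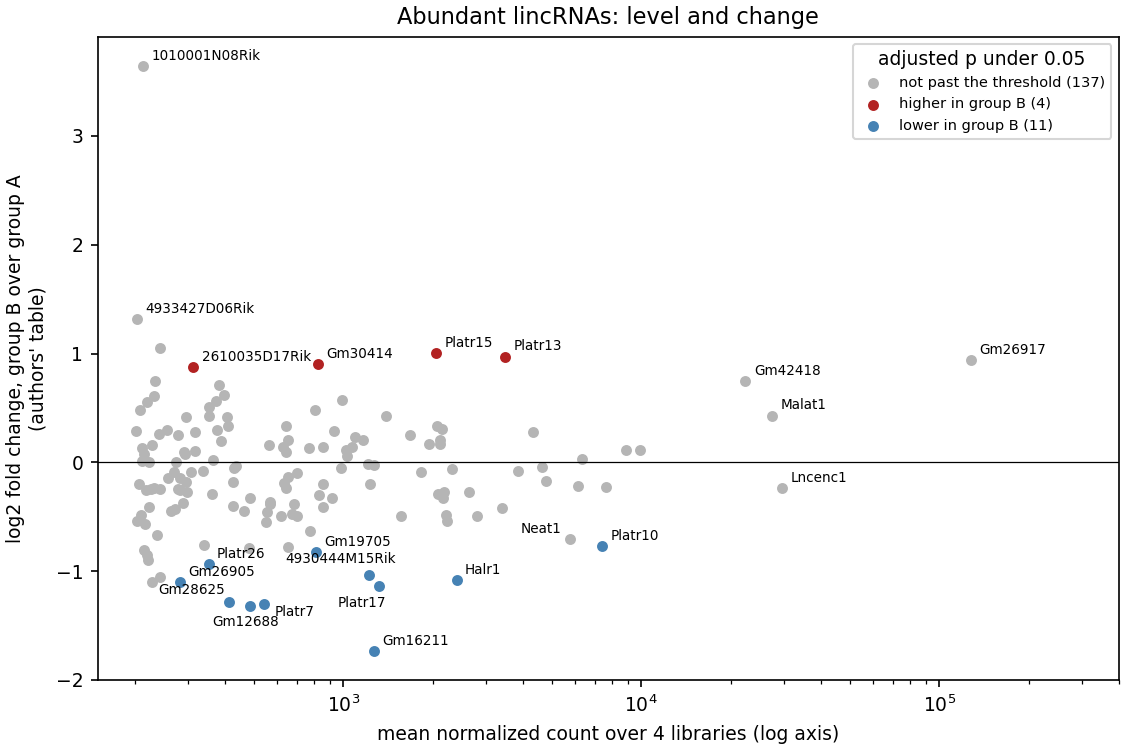
Mean normalized count of the 152 abundant lincRNAs over 4 libraries (horizontal, log axis) against the log2 fold change of group B over group A in the authors' deposited table (vertical), 1 point per lincRNA. The 4 lincRNAs past an adjusted p of 0.05 and higher in group B lie between log2 fold changes of 0.87 and 1.01, the 11 lower ones between -0.77 and -1.74, and Gm26917 and Gm42418, the first and the fourth by mean, did not pass.

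None of the 15 members that passed shares exon bases with another gene in GENCODE M21. By role they are 6 Platr transcripts, Halr1, and 8 lincRNAs known only by a locus name. The Platr names, for pluripotency-associated transcript, were given in mouse ES cells to noncoding RNAs whose level follows the pluripotent state.

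Of the Platr transcripts 14 were members, and they moved both ways: Platr13 and Platr15 rose, and Platr10, Platr17, Platr7 and Platr26 fell. The other 8 did not pass. Over all genes at a mean of 200, 2.77% passed as higher and 3.36% as lower. The median log2 fold change of the 14 was -0.63. In 4 both libraries of group B lay above both of group A, in 8 below, and in 2 the groups overlapped, where 28.5% of all genes at a mean of 200 lay above and 26.1% below. The table has 30 Platr symbols, 29 of them with a count, and outside the members Platr6 and Platr8 passed as lower.

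Platr10, linked to the maintenance of pluripotency in mouse ES cells, lies at chr3:75647446-75655731 (mm10) on the minus strand. It was the most abundant of the 15, with 5087 and 5807 normalized counts in group B and 9150.4 and 9429 in group A. The groups were well apart, with little spread within each. Its log2 fold change was -0.77 in the authors' deposited table (adjusted p 0.00149), and -0.77 ± 0.11 (SE) by limma (adjusted p 0.0406).

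Platr17 (chr17:33905135-33906675, plus strand) had 744 and 904 normalized counts in group B and 1823 and 1813 in group A. The group A libraries were nearly equal and both group B libraries were about as far below them. The difference was -1.14 on the log2 scale in the authors' deposited table (adjusted p 3.58e-06), with a limma adjusted p of 0.0404. M21 types this gene as protein_coding.

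Platr7 (chr10:84547417-84553338, minus strand) had 344 and 283 normalized counts in group B and 799 and 747 in group A, and Platr26 (chr2:71719417-71730966, plus strand) had 269.5 and 215 in group B and 479 and 449.9 in group A. In both, B2 was the lowest library. The authors' deposited table gave Platr7 a log2 fold change of -1.30 (adjusted p 1.17e-05) and Platr26 one of -0.94 (adjusted p 0.0173). The limma adjusted p was 0.0423 for Platr7 and 0.0909 for Platr26.

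Platr13 (chr11:41218837-41221096, plus strand), with only 375 exon bases, had 4587 and 4684 normalized counts in group B and 2392 and 2333 in group A. The libraries of each group were close together, and both of group B were high. Its log2 fold change was 0.97 in the authors' deposited table (adjusted p 4.31e-05), and 0.97 ± 0.11 (SE) by limma (adjusted p 0.0309), the lowest limma adjusted p among the 15.

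Platr15 (chr2:150704536-150706876, minus strand) had 3104 and 2353 normalized counts in group B and 1416 and 1301 in group A. Both group B libraries were higher, B1 the most. The authors' deposited table gave it a log2 fold change of 1.01 (adjusted p 0.00779), and limma an adjusted p of 0.0567.

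The 8 Platr members that did not pass had log2 fold changes between -1.10 (Platr11) and 0.42 (Platr20) in the authors' deposited table. Platr28 had 383 and 326 normalized counts in group B and 534 and 691 in group A, with no overlap, and an adjusted p of 0.0645 in the authors' deposited table. Platr11 had 171 and 118 in group B and 233 and 388 in group A, a wide spread in group A beside an adjusted p of 0.466 in the authors' deposited table. Platr11 was a member through its group A level alone. Platr3 and Platr4 were the members whose groups overlapped.

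Lncenc1, a lincRNA of naive mouse ES cells linked to their glycolysis, was the second most abundant member and did not pass. It had 28355 and 26233 normalized counts in group B and 31714 and 32655 in group A, with no overlap and a small difference. The authors' deposited table had a log2 fold change of -0.24 (adjusted p 0.921), and limma one of -0.24 ± 0.08 (SE; adjusted p 0.191). Bvht, named Braveheart for its part in heart lineage commitment in mouse, had 388 and 793 in group B and 736 and 659 in group A, which overlapped.

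Of 12 pluripotency factors 2 passed, both as lower, where 3.36% of all genes at a mean of 200 did. Utf1, a chromatin factor of ES cells, had 23994 and 23047 normalized counts in group B and 42044 and 52142 in group A (authors' deposited table, adjusted p 0.000237). Lin28a, an RNA-binding protein that blocks let-7 maturation, had 21204 and 16260.0 in group B and 28487 and 28950.1 in group A (authors' deposited table, adjusted p 0.0340). The fall of Utf1 was larger than that of Platr10 or Platr26. The median log2 fold change of the 12 factors was -0.29. In 7 both libraries of group B lay below both of group A and in 1 above, where the shares over all genes at that level were 26.1% and 28.5%. Their summed normalized count was 632502 in B1 and 610252 in B2, against 679391 in A1 and 734008 in A2. The summed level of the endoderm markers, given above, was higher in both group B libraries, in B1 the most, but 7 of the 19 markers did not have both group B libraries above group A, Ttr, Cubn and Hnf4a among them. The part of a shift in cell types in the Platr changes was not tested.

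**Figure D2:**
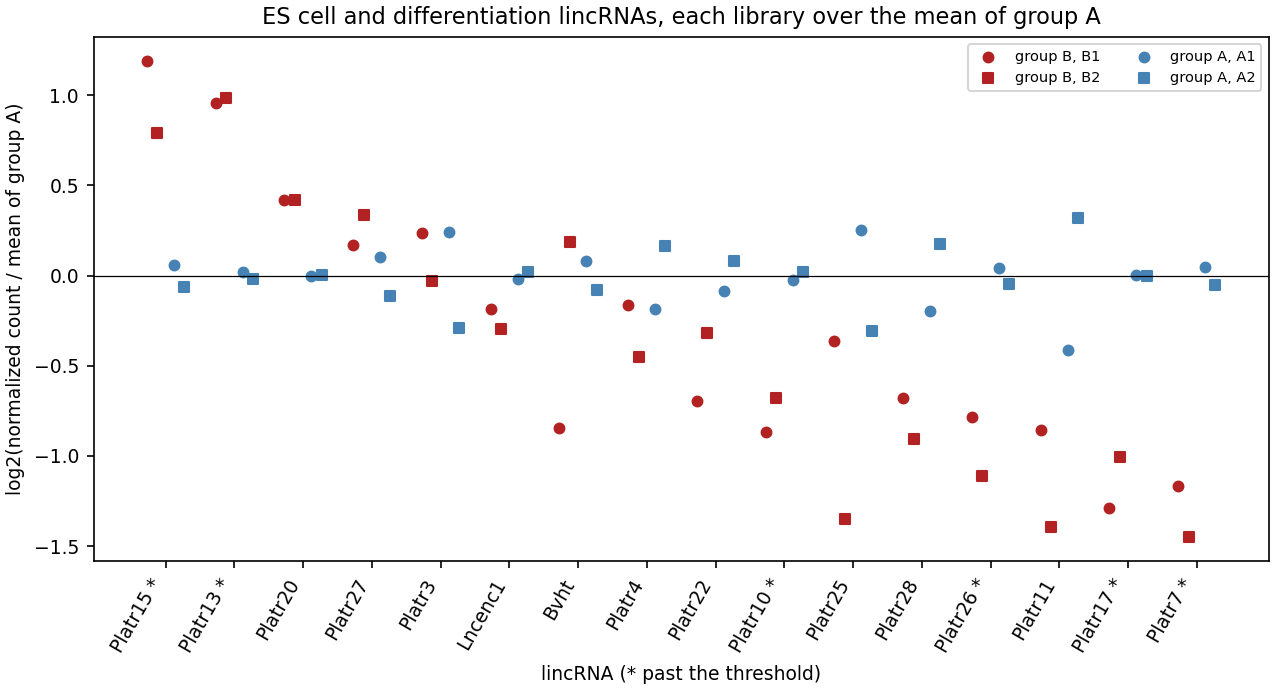
Log2 of each library's normalized count over the mean of group A for the 14 Platr members, Lncenc1 and Bvht, with B1 and B2 left of A1 and A2 for each lincRNA and a star where the authors' adjusted p was under 0.05. The group B points of Platr15 and Platr13 lie highest, the lowest points are B2 of Platr7, Platr11 and Platr25, and the group B libraries of Bvht and Platr25 lie far apart.

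Halr1, also called Haunt, lies at chr6:52102949-52113684 on the plus strand and has been studied in mouse ES cells. It had 1615 and 1459 normalized counts in group B and 2986 and 3532 in group A. Both group B libraries were far below both of group A. The fold change on the log2 scale was -1.08 in the authors' deposited table (adjusted p 6.87e-06), and -1.08 ± 0.15 (SE) by limma (adjusted p 0.0370).

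The remaining lincRNAs that fell are known by locus names only. Gm16211 (chr4:147668518-147670854, minus strand) had the largest fall of all members, with 476 and 692 normalized counts in group B and 1937 and 1951 in group A. The group A libraries were alike, and B1 was below B2. Its log2 fold change was -1.74 in the authors' deposited table (adjusted p 4.58e-14), and -1.76 ± 0.22 (SE) by limma (adjusted p 0.0312).

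4930444M15Rik (chr14:76514558-76520855, minus strand) had 858 and 733 normalized counts in group B and 1727 and 1546 in group A. The authors' deposited table gave a log2 fold change of -1.04 (adjusted p 8.24e-05), and limma an adjusted p of 0.0467. The groups were well apart, and both tests called it.

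Gm12688 (chr4:99653607-99654983, minus strand) had 318 and 239 normalized counts in group B and 779 and 608 in group A, and Gm28625 (chr9:84890545-84890749, plus strand), the shortest member at 205 exon bases, had 279 and 203 in group B and 594 and 583 in group A. In both, the group B libraries were far below those of group A and B2 was the lower. The authors' deposited table gave log2 fold changes of -1.32 (adjusted p 0.000535) for Gm12688 and -1.29 (adjusted p 7.85e-05) for Gm28625. Their limma adjusted p was 0.0602 and 0.0566.

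Gm19705 (chr1:136670769-136690804, plus strand) had 651 and 519 normalized counts in group B and 1117 and 959 in group A. Gm26905 (chr8:58171435-58298866, plus strand) had 189 and 171 in group B and 380.5 and 392 in group A, so it was a member through its group A level. Neither lincRNA had overlapping groups. In the authors' deposited table the log2 fold change was -0.83 (adjusted p 0.00963) for Gm19705 and -1.10 (adjusted p 0.00514) for Gm26905, and their limma adjusted p was 0.0937 and 0.0643.

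Besides Platr13 and Platr15, 2 lincRNAs rose. Gm30414 (chr1:7497968-7518149, plus strand) had 1059.8 and 1079 normalized counts in group B and 656 and 489 in group A. 2610035D17Rik (chr11:113043895-113201838, minus strand) had 365 and 447 in group B and 205 and 238 in group A. The groups did not overlap in either lincRNA. The authors' deposited table gave log2 fold changes of 0.90 (adjusted p 0.00271) for Gm30414 and 0.87 (adjusted p 0.0444) for 2610035D17Rik, and limma gave an adjusted p of 0.0808 and 0.115.

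**Figure D3:**
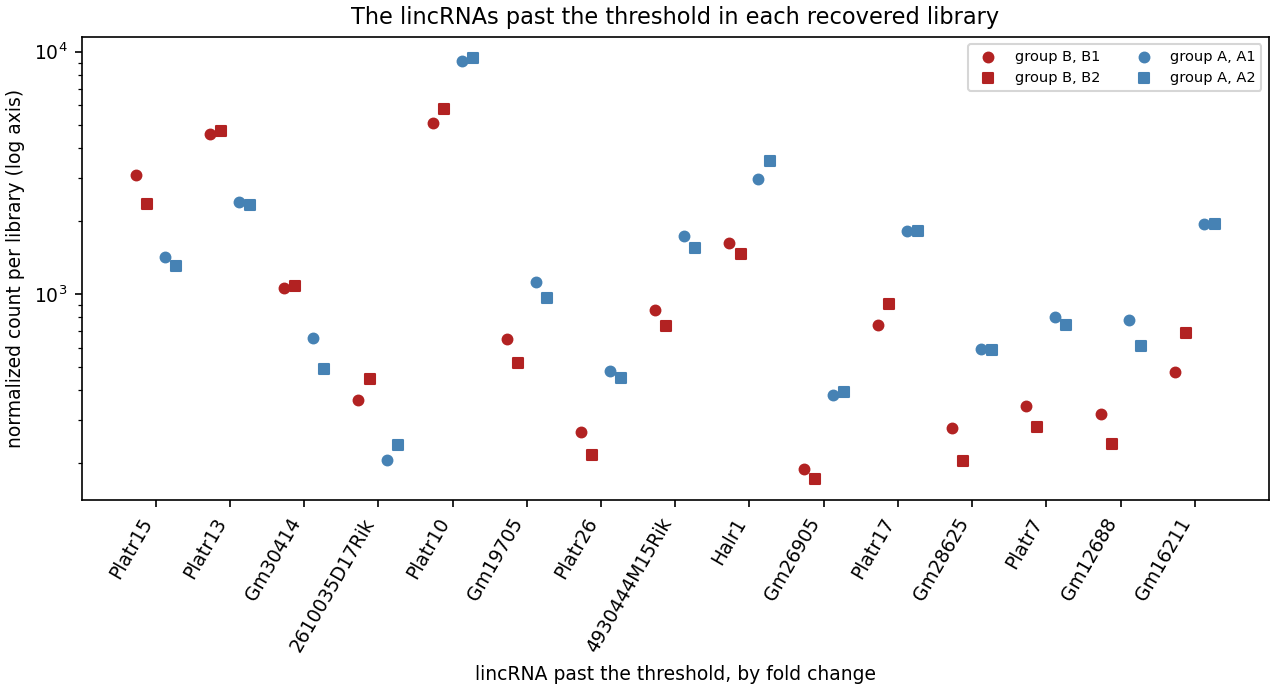
Normalized count in each recovered library (log axis) of the 15 abundant lincRNAs past the authors' threshold, ordered by fold change, with B1 and B2 left of A1 and A2 for each. The group B points lie above the group A points for the 4 lincRNAs at the left and below them for the other 11, with no overlap.

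The promoter sequences are shown for the letters that lie before the starts of lincRNAs that differed between the groups. The RefSeq promoter table (GRCm38.p6, 250 bases before to 50 after the start) held 73 of the 152 members and 7 of the 15. A count over all members is therefore void as a check of the set, since fewer than 80% have an entry. Those of Platr10, Platr7, Platr26, Halr1 and 4930444M15Rik, which fell, and of 2610035D17Rik, which rose, are shown 5′ to 3′ on the strand of the gene, where the RefSeq and M21 starts are the same. Capitals mark matches to 6 motifs searched on both strands. CTTTGAT and CTTTGTT were searched as cores of TCF/LEF factors, and CTTTGTT is also bound by SOX factors. ATGCAAAT is the octamer of the POU factors. CACGTG is an E-box. TATAAA is the TATA box. CCAAT is the box of that name. None of the motifs is contained in another. The windows are chr3:75655682-75655981 (minus strand) for Platr10, chr10:84553289-84553588 (minus strand) for Platr7, chr2:71719167-71719466 (plus strand) for Platr26, chr6:52102699-52102998 (plus strand) for Halr1, chr14:76520806-76521105 (minus strand) for 4930444M15Rik and chr11:113201789-113202088 (minus strand) for 2610035D17Rik.
Platr10: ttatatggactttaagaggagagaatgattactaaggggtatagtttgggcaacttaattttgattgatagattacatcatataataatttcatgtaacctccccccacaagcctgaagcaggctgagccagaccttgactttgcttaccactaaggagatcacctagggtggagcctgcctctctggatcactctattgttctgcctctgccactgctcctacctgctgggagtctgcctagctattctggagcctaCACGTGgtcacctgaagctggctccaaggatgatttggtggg
Platr7: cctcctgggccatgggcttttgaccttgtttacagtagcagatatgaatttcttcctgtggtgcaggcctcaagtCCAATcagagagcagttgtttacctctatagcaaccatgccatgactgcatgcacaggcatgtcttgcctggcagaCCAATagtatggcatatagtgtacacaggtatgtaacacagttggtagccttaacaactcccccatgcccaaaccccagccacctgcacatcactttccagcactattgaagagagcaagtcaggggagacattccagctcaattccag
Platr26: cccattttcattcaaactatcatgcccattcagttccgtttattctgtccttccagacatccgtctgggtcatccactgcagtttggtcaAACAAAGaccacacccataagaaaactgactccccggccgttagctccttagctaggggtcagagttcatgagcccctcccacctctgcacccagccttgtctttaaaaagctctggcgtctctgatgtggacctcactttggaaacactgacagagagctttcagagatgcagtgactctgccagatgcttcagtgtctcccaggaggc
Halr1: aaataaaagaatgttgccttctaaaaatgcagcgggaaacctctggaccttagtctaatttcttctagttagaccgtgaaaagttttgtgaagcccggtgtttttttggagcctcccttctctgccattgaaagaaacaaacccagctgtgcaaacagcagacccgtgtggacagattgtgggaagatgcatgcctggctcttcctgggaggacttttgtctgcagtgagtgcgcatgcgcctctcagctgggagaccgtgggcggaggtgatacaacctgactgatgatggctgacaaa
4930444M15Rik: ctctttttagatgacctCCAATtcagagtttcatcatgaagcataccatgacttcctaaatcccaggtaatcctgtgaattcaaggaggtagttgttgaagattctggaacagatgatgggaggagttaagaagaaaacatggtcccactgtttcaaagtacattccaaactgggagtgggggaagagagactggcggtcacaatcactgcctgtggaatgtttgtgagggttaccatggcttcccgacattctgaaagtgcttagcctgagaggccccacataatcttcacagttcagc
2610035D17Rik: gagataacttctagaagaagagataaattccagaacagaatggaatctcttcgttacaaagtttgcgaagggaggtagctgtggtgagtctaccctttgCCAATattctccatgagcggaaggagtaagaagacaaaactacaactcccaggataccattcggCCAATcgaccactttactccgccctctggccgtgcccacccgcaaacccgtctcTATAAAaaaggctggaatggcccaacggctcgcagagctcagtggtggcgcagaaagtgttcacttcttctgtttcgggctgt

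No 2 of the 6 windows have the same arrangement of motifs. In Platr10 the E-box began 9 bases after the start. In Platr7 the CCAAT box stood 175 and 99 bases before the start. Platr26 held a CTTTGTT match, a TCF/LEF or SOX core, on the other strand 160 bases before its start. In 4930444M15Rik a CCAAT box stood 233 bases before the start. The window of 2610035D17Rik held CCAAT boxes 151 and 87 bases and a TATA box 33 bases before the start, and that of Halr1 held none of the 6 motifs. Among the 73 member promoters, CTTTGAT was in 4.11%, against 3.72% of all 27025 promoters, and in 0 of the 7 that passed. The other shares were 4.11% against 5.79% for CTTTGTT, 1.37% against 1.75% for ATGCAAAT, 11.0% against 7.24% for CACGTG, 6.85% against 14.2% for TATAAA and 39.7% against 37.9% for CCAAT. A match is a run of letters and not a bound site.

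The scaffold RNAs of nuclear bodies did not pass. Malat1, a component of nuclear speckles where splicing factors collect, had 27733 and 35290.0 normalized counts in group B and 24428 and 22389 in group A. Both group B libraries were higher. The log2 fold change of Malat1 was 0.43 in the authors' deposited table (adjusted p 0.481), and 0.42 ± 0.13 (SE) by limma (adjusted p 0.161). Neat1, the RNA around which paraspeckles form, had 4701 and 4078 in group B and 10099 and 4200.3 in group A. A1 alone stood high, and the groups overlapped. The authors' deposited table gave Neat1 a log2 fold change of -0.70 (adjusted p 1). The summed feeder level, given above, was higher in A1 than in A2 and highest in B2. Neat1 outside A1 lay between 4078 and 4701. The part of feeder RNA in the Neat1 values was not tested. Per kilobase of exon Malat1 had 4513 normalized counts in group B and 3352 in group A, and Neat1 211 in group B and 344 in group A. Miat, the other nuclear-body RNA of the list, was no member.

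Gm26917 and Gm42418 stood apart from the rest. They held 39.3% of the members' counts and lie together on chromosome 17, at chr17:39843013-39846341 and chr17:39846958-39848788. Gm26917 had 71500.5 and 264347 normalized counts in group B and 69368 and 105428 in group A. Gm42418 had 12535 and 43469 in group B and 13921 and 19498 in group A. In both, B2 was by far the highest library, and B1 was not above both group A libraries. The authors' deposited table gave log2 fold changes of 0.94 for Gm26917 and 0.74 for Gm42418, each with an adjusted p of 1.

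Rn18s-rs5, an 18S ribosomal RNA row at chr17:39846353-39848827 on the other strand, had 289725 and 1435140.5 normalized counts in group B and 398082 and 467820.4 in group A. RefSeq lists Gm42418 as a synonym of Rn18s-rs5. Rpph1 and Rmrp, the RNA parts of the RNases P and MRP that carry no poly(A) tail, also stood highest in B2, Rpph1 with 386 and 4287 in group B and 666 and 578 in group A, and Rmrp with 4.58 and 55.6 in group B and 7.37 and 6.92 in group A. Terc, a misc_RNA row of the same host list as Rpph1 and Rmrp, was not highest in B2. It had 19.3 and 33.1 in group B and 34.1 and 18.8 in group A. Rmrp and Terc had low counts. The part of carried-over ribosomal RNA in Gm26917 and Gm42418 was not tested. Without Gm26917 and Gm42418, a choice made after the values were seen, the members held 0.171% and 0.166% of the counts in group B and 0.183% and 0.175% in group A. With them the shares were 0.233% and 0.397% in group B and 0.246% and 0.269% in group A.

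Libraries of the same group differed widely in a few members. The median absolute log2 ratio of B2 to B1 was 0.24 for the members and 0.18 for the genes that reached a mean of 200. For A1 over A2 it was 0.21 for the members and 0.13 for those genes, and the difference was not tested. The widest ratios were those of Gm26917, Gm42418, Mir124a-1hg, 1010001N08Rik and Neat1, and none of these 5 passed the threshold.

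**Figure D4:**
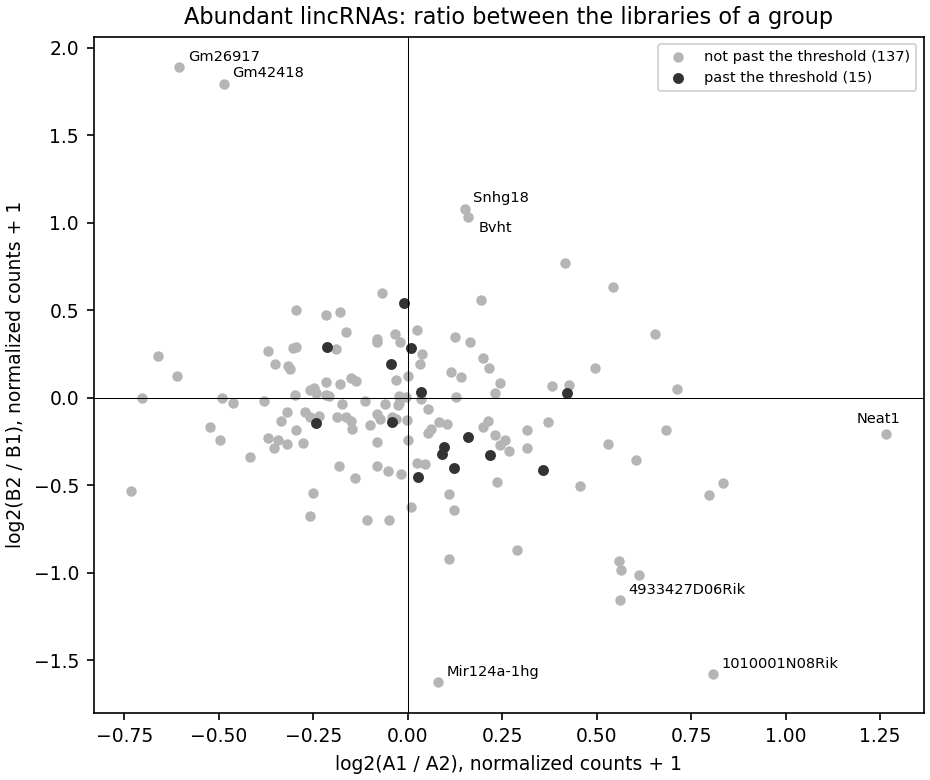
Log2 ratio of B2 to B1 (vertical) against that of A1 to A2 (horizontal), from normalized counts + 1, for the 152 abundant lincRNAs, with those past the authors' threshold in black. Gm26917 and Gm42418 are high in B2, Neat1 is high in A1, Mir124a-1hg and 1010001N08Rik are low in B2, and the 15 black points lie closer to the centre.

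No host transcript of small RNAs among the members passed. Of the 24 entries of the snoRNA and small RNA host list 6 were members, and 0 of the 6 passed, with a median log2 fold change of -0.06. No other gene of that list passed either. Snhg12 had 12101 and 8518 normalized counts in group B and 11024 and 8034 in group A, and Snhg6 had 4849.8 and 4318 in group B and 5051 and 4397 in group A. In both the groups overlapped, with B1 above B2 and A1 above A2. Snhg20 had 2211 and 1414 in group B and 2743 and 2521 in group A, lower in both libraries of group B, with an adjusted p of 0.550 in the authors' deposited table. Snhg18, Epb41l4aos and Dancr, an RNA that holds back differentiation in human progenitor cells, had overlapping groups.

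RefSeq places mature miRNAs inside 6 members: Mir17hg, 6720427I07Rik, Mir9-3hg, E130102H24Rik, Snhg20 and 2900076A07Rik. Small RNAs were not measured here, and the values are those of the host transcripts. The sequences show which hosts could give miRNAs of a shared seed, bases 2 to 8 from the 5′ end, which pairs with target mRNAs and stands in capitals. Mir17hg, host of the miR-17-92 cluster that promotes proliferation, holds 11 mature miRNAs with 9 seeds. In it miR-17-5p and miR-20a-5p share one seed, and miR-19a-3p and miR-19b-3p another. The let-7 miRNAs, which rise on differentiation, share their seed within 6720427I07Rik, and Mir9-3hg holds the neural miR-9. The sequences are from RefSeq (GRCm38.p6).
mmu-miR-17-5p: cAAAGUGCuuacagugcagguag
mmu-miR-20a-5p: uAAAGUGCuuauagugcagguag
mmu-miR-18a-5p: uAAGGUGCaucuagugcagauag
mmu-miR-19a-3p: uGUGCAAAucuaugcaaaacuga
mmu-miR-19b-3p: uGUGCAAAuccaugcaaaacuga
mmu-miR-92a-3p: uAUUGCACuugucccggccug
mmu-let-7a-5p: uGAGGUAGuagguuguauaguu
mmu-let-7d-5p: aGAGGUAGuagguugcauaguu
mmu-let-7f-5p: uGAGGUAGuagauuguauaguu
mmu-miR-9-5p: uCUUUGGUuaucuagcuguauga

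The host Mir17hg had 5234 and 3739.6 normalized counts in group B and 5464 and 4642 in group A, which overlapped. The let-7 host 6720427I07Rik had 1134 and 1373 in group B and 1192 and 1359.6 in group A, a difference of -0.03 on the log2 scale in the authors' deposited table (adjusted p 1). Mir9-3hg had 171 and 143 in group B and 275 and 292 in group A, lower in both group B libraries, and its adjusted p in the authors' deposited table was 0.111. Mir124a-1hg, the host of a neural miR-124 copy, had 236 and 75.7 in group B and 279 and 264 in group A, where B2 alone was far down. Both Mir9-3hg and Mir124a-1hg were members through their group A level alone, so a lower level in group B was built into their choice. Of the 12 entries in the miRNA host list 2 were members and neither passed, and AU018091, a protein_coding row of that list, passed as lower.

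Of the 18 entries in the list of broadly expressed regulatory lincRNAs 2 were members, and neither passed. 1700020I14Rik, listed by RefSeq under the synonym Oip5os1 and known as Cyrano, which binds the miRNA miR-7, had 7298 and 6776 normalized counts in group B and 7547 and 8886 in group A. Pvt1, the lincRNA next to Myc, had 2298 and 2482 in group B and 2733 and 3035 in group A. In both lincRNAs the group B libraries were the lower ones, with -0.22 for 1700020I14Rik (adjusted p 0.990) and -0.27 for Pvt1 (adjusted p 0.821) on the log2 scale in the authors' deposited table. Of that list Kcnq1ot1 passed as higher and Crnde as lower, and both are outside the members.

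The 5 largest differences that missed the threshold were in members that reached a mean of 200 only through the group where they were high, so a difference in that direction was built into their choice. 1010001N08Rik had 593 and 197 normalized counts in group B and 40.5 and 22.7 in group A. Both group B libraries were far above both of group A, and B1 was well above B2. Its log2 fold change was 3.64 in the authors' deposited table (adjusted p 0.253), and 3.45 ± 0.59 (SE) by limma (adjusted p 0.0510). RefSeq gives it the synonym Gata6os, and its start lies 503 bases from that of Gata6, a transcription factor gene of primitive endoderm on the opposite strand. Gata6 had 8215 and 3503 in group B and 744 and 535 in group A, the same order of libraries, and the 19 endoderm markers had that order in their sum too. The part of endoderm-like cells in this lincRNA was not tested.

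Other members with log2 fold changes beyond 1 in size that did not pass were 4933427D06Rik at 1.32, Platr11 at -1.10, AI838599 at -1.06 and Gm43673 at 1.05 in the authors' deposited table. Gm43673 had 286 and 368 normalized counts in group B and 193 and 123 in group A and an adjusted p of 0.0569 in the authors' deposited table. Dubr, studied in mouse muscle differentiation, had 129 and 179.7 in group B and 267 and 310.5 in group A and an adjusted p of 0.0555 in the authors' deposited table. Neither had overlapping groups, and Dubr too was a member through its group A level alone. At an unadjusted p under 0.05 in the authors' deposited table there were 11 members higher and 25 lower.

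Within 50 kb, a member and its nearest protein-coding gene passed together in a single pair. A start of a protein-coding gene lay within 50 kb of the start of 103 members, and the 102 distinct neighbours all had a count. Of these, 8 passed (7.84%), 0 higher and 8 lower, where 5.15% of all protein-coding genes with a count passed. Of the 8 members past the threshold with such a neighbour, 1 had a neighbour that passed.

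The pair was Gm12688 and Foxd3, a transcription factor gene of ES cells and neural crest, whose starts lie 1316 bases apart and point away from each other. Foxd3 had 2741 and 2469 normalized counts in group B and 5847 and 5739 in group A. The authors' deposited table gave Foxd3 a log2 fold change of -1.15 (adjusted p 3.61e-07), beside -1.32 for Gm12688. The limma adjusted p of Foxd3 was 0.0268.

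Pairs that start still closer together did not always move together. Gm14230 starts 115 bases from Tgif2, a repressor of TGF-beta signalling, and points away from it. Gm14230 had 1256 and 1146 normalized counts in group B and 1071 and 1351 in group A, which overlapped, while Tgif2 had 397 and 277 in group B and 657 and 788 in group A. In the authors' deposited table the log2 fold change was -0.01 (adjusted p 1) for Gm14230 and -1.10 (adjusted p 0.00123) for Tgif2. C230088H06Rik starts 216 bases from Zfp982, and the authors' deposited table gave -0.66 on the log2 scale for each (adjusted p 0.323 for the lincRNA, 0.0241 for Zfp982). The lincRNA had 199.9 and 166 normalized counts in group B and 314 and 265 in group A, with no overlap. C230088H06Rik was a member through its group A level alone, so a lower level in group B was built into its choice.

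The other neighbours that passed, all lower, were Nusap1 beside 1700020I14Rik, Rbmxl2 beside Platr28, Gm20939 beside Gm1976, Zfp936 beside Gm17768 and Gsta4 beside C920006O11Rik. Of the 151 placed members 23 start within 1 kb of a protein-coding start, 17 of them on the opposite strand and pointing away. Of the 15 past the threshold 2 had such a start within 10 kb, Gm12688 with Foxd3 and Platr17 with Daxx.

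**Figure D5:**
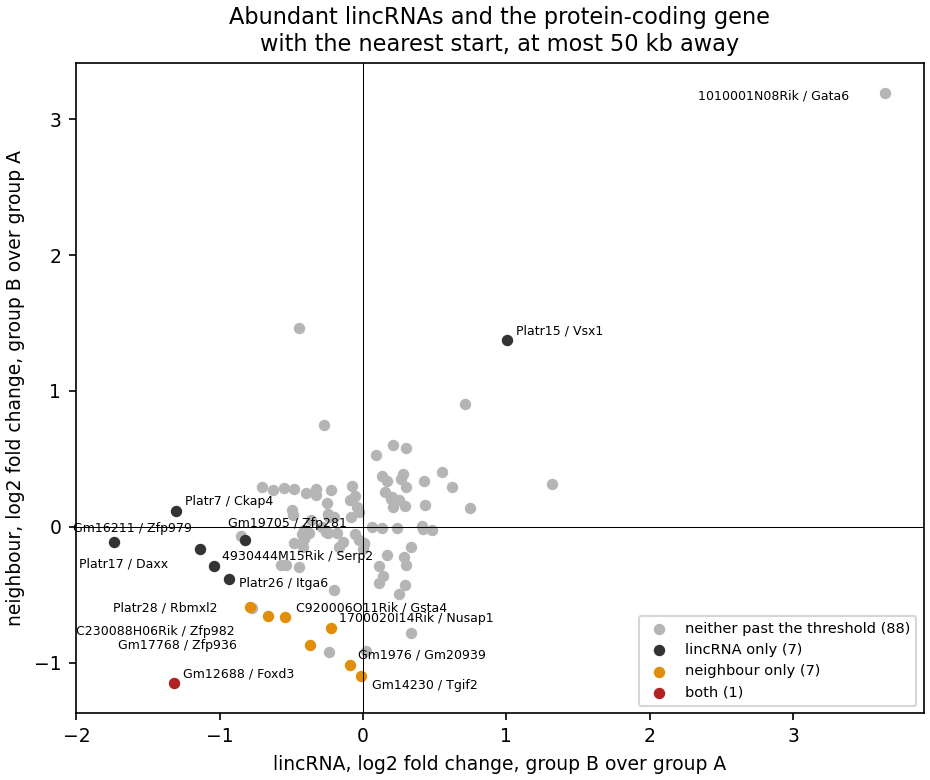
Log2 fold change of group B over group A in the authors' deposited table for 103 abundant lincRNAs (horizontal) and for the protein-coding gene with the nearest start at most 50 kb away (vertical), coloured by which of the pair had an adjusted p under 0.05. Gm12688 and Foxd3 are the single pair in which both passed, Gm14230 lies near 0 on the horizontal axis with Tgif2 far below 0, and 1010001N08Rik and Gata6 lie at the top right with neither past the threshold.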

How the data were processed

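Polyadenylated RNA was measured in 4 samples, 2 per genotype. STAR, DESeq and the build mm10 are named without versions in the submitters' processing notes, and libraries were stranded TruSeq per the labels' protocols. Not given in the sources used here are the counting tool, whether it used strand, the gene annotation and any filter. The deposited table holds the mean normalized count of all libraries and of each group (a signal: counts divided by size factors, with no single-sample value), the ratio of group B to group A as a fold change, its log2, and a p-value and adjusted p-value by the authors. The authors' adjusted p-value equals a Benjamini-Hochberg adjustment over the 30237 genes with a count within 4.54e-15. Its 46608 rows name 46603 gene IDs, and repeats were used once.

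The authors' test at an adjusted p under 0.05 was the main result, since the table holds no single-sample value. Each group mean is a sum of 2 libraries' whole counts times 2 fixed steps. Solving for them gave whole counts within 1e-06 for all 28353 genes of group B and all 28616 of group A, and the steps equalled size factors by the median of ratios within 1.78e-15. The closest pair was taken where 2 lay within the tolerance (5 genes of group B, 1700 of group A). The recovered counts were divided by those size factors and tested with limma 3.58.1 (R 4.3.3, trend, two-sided, Benjamini-Hochberg adjustment) on log2(normalized count + 1) over 20465 genes with a mean of at least 10, a scale that understates changes of low genes. The steps were tested on simulated counts. With 2 samples a group, p-values measure the spread between these samples alone.

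Gene positions, exon lengths and nearest starts came from GENCODE M21 on mm10, and sequences from RefSeq by symbol. Members were named by a rule: those past the threshold with their neighbours, those on a role list, the 10 highest by mean and per kilobase, the 5 largest differences that missed the threshold, the 5 widest ratios between libraries and those next to the mean of 200. Dubr, the hosts of RefSeq miRNAs, the other neighbours that passed, members of another M21 type, single marker genes and the ribosomal and RNase RNAs were named after their values were seen. Some results are not reported here. The members and the lists were chosen with earlier results of these data known, and support nothing by their direction. Alternatives were a stricter threshold, other pseudocounts, filters and scalings, leaving out each library, other membership levels and other neighbour distances.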

Additional observations from a re-analysis of the deposited data

How the results depend on the processing

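No paired analysis was possible because the recovered libraries carry no replicate number of the labels, so the planned fit with a replicate block was not run. At an adjusted p under 0.01 the authors' test gave 674 genes, against 1047 at 0.05, and 3 members higher and 10 lower. Limma called 1 member higher and 6 lower among 411 genes, and the same counts of members with a pseudocount of 0.5 (397 genes), a mean of at least 50 (439) and total-count scaling (448). It called 2 higher and 6 lower with a pseudocount of 5 (495 genes) and with no filter (412), and 2 higher and 7 lower with upper-quartile scaling (570). Total-count and upper-quartile scaling moved every log2 ratio by -0.0135 and -0.0211. Leaving out 1 library at a time gave 0 to 5 members higher, 0 to 10 lower and 0 to 1111 genes in all. The lone sample of a group is then assumed to vary like the others. Both zeros for members came without A1 or A2, and without B2 there were 7 lower. Unadjusted limma p under 0.05 then held for 9 members higher and 16 lower without A1 and for 8 and 16 without A2. The 15 members kept their direction in each of these fits. The median log2 fold change of the members lay between -0.14 and -0.10 without 1 library. It was -0.15 with membership at a mean of 400 and -0.19 without members that overlap exons on the opposite strand. Neighbours past the threshold numbered 4 of 44 within 10 kb and 12 of 127 within 200 kb. Of those 12, 2 were higher and 10 lower, where 0 of the 8 within 50 kb were higher. Within 200 kb, 2 members past the threshold had a neighbour that passed, against 1 within 50 kb. Membership at a mean of 100 or 400, and keeping the genes left out by name, left both counts of members within 1.5 times. So did 3 choices made after seeing the data: leaving out Gm26917 and Gm42418, leaving out members with exon overlap on the opposite strand, and keeping only members at or above 200 in both groups. No result changed its direction. With 2 libraries a group, small differences in members near 200 normalized counts could not be tested closely.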
